A study of Mus musculus with 24 samples.

Results

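The coding exon windows are 200-bp bins of the mouse genome in which 5-hydroxymethylcytosine (5hmC) was called as different between a pair of embryonic stem cell (ESC) lines, and whose midpoint lies in the coding part of an exon. Of the 20726 listed windows, 628 were coding exon windows, or 3.03%. They were chosen by position alone, from the curated RefSeq transcripts of GRCm38.p6, and windows in a promoter (1000 bp before to 100 bp after a transcription start site) or in a termination zone (100 bp before to 1000 bp after a transcript end) were left out. Of the 628 windows, 414 came from the list of regions with higher 5hmC in Wt25 cells and 214 from the list with higher 5hmC in AA10 cells.

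Both lines are mouse ESCs of a mixed C57BL/6J-129V background that lack their own Tet1, Tet2 and Tet3 and were grown in 2i medium with leukemia inhibitory factor. Wt25 cells carry a lentiviral transgene for Flag-tagged human wild-type Tet3, and AA10 cells carry the phosphor-mutant form, in which both serines phosphorylated by cdk5 were changed to alanine. Each line is 1 puromycin-selected clone, with a similar Tet3 protein level, so a difference between the clones and a difference between the forms of Tet3 cannot be told apart. There were 3 5hmC-DIP libraries of each line, a method in which DNA fragments that carry 5hmC are recovered with an antibody and sequenced. The deposited lists join the libraries of a line and hold positions only. They carry no read number, fold change or P-value for a window, so the depth and the error of a single window are unknown, and the expression of stem cell markers could not be checked from them. Shares are followed by their 95% interval by Wilson's method, which takes in counting error alone.

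Tet enzymes oxidise 5-methylcytosine, which in mammals lies mostly at CpG dinucleotides, to 5hmC. In ESCs 5hmC is known to be common in gene bodies and scarce at the start sites of CpG-rich promoters. Coding exons hold more CpGs than most of the genome, and codons such as those of arginine contain the dinucleotide. In many cell types most CpGs of coding exons are methylated where they lie away from a CpG island. The 5-methylcytosine of the present cells was not examined.

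The windows with most CpGs show how different the base composition of coding windows could be. The sequences below are from GRCm38.p6, 198 bases each as listed, on the coding strand of the gene, with every CpG in capitals. The first set holds the CpG-densest windows with higher 5hmC in Wt25 cells.
Ltk chr2:119758203-119758400, minus strand, 32 CpGs: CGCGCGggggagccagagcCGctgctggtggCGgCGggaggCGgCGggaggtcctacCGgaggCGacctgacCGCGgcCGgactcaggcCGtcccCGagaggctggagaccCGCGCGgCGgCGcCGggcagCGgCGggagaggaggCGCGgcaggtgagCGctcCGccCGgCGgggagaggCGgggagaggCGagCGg
Ltk chr2:119758003-119758200, minus strand, 32 CpGs: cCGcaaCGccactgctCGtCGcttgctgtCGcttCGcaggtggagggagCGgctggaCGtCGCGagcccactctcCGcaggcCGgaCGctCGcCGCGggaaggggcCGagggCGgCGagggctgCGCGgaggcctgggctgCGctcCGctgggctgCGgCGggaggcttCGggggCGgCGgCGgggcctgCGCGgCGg
Khdrbs1 chr4:129741803-129742000, minus strand, 23 CpGs: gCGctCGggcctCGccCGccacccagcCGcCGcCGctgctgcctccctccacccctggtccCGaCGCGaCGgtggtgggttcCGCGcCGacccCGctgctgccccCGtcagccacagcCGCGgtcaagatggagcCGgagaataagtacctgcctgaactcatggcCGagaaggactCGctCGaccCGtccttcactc
Nnat chr2:157560403-157560600, plus strand, 22 CpGs: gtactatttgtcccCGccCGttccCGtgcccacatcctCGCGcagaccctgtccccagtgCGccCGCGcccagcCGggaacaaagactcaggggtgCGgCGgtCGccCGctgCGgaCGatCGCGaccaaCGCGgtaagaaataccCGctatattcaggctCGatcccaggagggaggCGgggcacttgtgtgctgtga

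Ltk encodes a receptor tyrosine kinase, and its pair of touching windows held 32 CpGs each in coding exons 6 and 7 of 20, the most of any coding exon window. Of the 26 CpGs of the exon 7 window that lay in the coding part, 4 began at the first codon base, 11 at the second and 11 at the third. The Khdrbs1 window, in a gene for an RNA-binding protein, lay wholly in coding exon 1 of 9, and 14 of its 23 CpGs began at the second codon base. Nnat, an imprinted gene that encodes neuronatin, had a window with 22 CpGs in coding exon 2 of 3, of which 88 bases were coding. The other Wt25 windows among the 8 with most CpGs were in Rnf39 with 22 CpGs, in the large cadherin gene Dchs2 with 22, in Pacsin1 with 20 and in the protocadherin gene Pcdha1 with 19. A window in Stox2 also had 19 CpGs.

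The CpG-densest windows with higher 5hmC in AA10 cells are shown for comparison.
Rasl10a chr11:5058403-5058600, plus strand, 20 CpGs: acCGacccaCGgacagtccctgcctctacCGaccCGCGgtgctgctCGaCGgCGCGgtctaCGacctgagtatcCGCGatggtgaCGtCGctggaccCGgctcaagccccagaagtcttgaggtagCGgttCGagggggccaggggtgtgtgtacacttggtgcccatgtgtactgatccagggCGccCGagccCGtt
B3gnt9 chr8:105254603-105254800, minus strand, 19 CpGs: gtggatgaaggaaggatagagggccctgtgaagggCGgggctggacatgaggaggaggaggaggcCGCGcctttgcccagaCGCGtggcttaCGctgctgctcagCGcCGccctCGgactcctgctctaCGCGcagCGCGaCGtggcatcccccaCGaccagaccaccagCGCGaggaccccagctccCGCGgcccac
Fzd7 chr1:59483803-59484000, plus strand, 14 CpGs: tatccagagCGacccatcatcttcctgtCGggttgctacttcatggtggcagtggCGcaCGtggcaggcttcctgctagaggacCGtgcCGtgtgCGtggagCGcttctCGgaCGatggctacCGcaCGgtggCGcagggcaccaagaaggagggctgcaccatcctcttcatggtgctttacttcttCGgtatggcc
Flt4 chr11:49634203-49634400, plus strand, 14 CpGs: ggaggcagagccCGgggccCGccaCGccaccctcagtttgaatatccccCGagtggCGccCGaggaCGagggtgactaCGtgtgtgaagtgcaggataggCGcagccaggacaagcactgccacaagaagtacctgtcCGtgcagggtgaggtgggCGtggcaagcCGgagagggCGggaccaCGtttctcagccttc

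Rasl10a, which encodes a small GTPase of the Ras family, had a window with 20 CpGs in coding exon 1 of 3, of which 122 bases were coding. B3gnt9, which encodes a glycosyltransferase, had a window with 19 CpGs at the beginning of its only coding exon. The next AA10 windows were in Fzd7, a Wnt receptor gene, and in coding exon 13 of 30 of Flt4, the gene for VEGF receptor 3, with 14 CpGs each. They were followed by Nptx2, a neuronal pentraxin gene, with 13 CpGs, and by Mideas, Sfn and Prdm16 with 12 each. In Wt25 6 of these 8 windows lay within 1000 bp of an annotated start site, and in AA10 3 of 8 did, outside the promoter interval in each case. Between the lists the CpG-rich end differed in number: 21 Wt25 windows and 2 AA10 windows held 15 or more CpGs, and outside dense runs of listed windows (defined with the leading genes) the numbers were 18 and 1. This cut at 15 CpGs was chosen after the values were seen and was not tested.

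Coding exons were listed more often than the genome as a whole in both directions. Over all 13237133 bins without unknown bases, 0.0914% were listed as higher in Wt25 and 0.0652% as higher in AA10. Over the 167539 bins whose midpoint lies in a coding exon by the same rule, 0.247% (0.224 to 0.272) were listed as higher in Wt25 and 0.128% (0.112 to 0.146) as higher in AA10. These shares were 2.70 times and 1.96 times those of all bins. Intron bins were listed at 1.17 per 1000 in Wt25 and 0.760 per 1000 in AA10, and intergenic bins at 0.669 and 0.528 per 1000. The order of the classes differed between the lists: in Wt25 coding exons had 2.47 listed windows per 1000 bins and promoters 2.04, whereas in AA10 coding exons had 1.28 and promoters 1.81. In AA10 the coding exon density was also near that of the termination zones, at 1.23 per 1000 bins. Bins of 5′ UTRs were listed at 2.46 per 1000 in Wt25 and 1.43 in AA10, and those of non-coding exons at 2.01 and 1.54. Both stood above coding exons in AA10, and 5′ UTRs equalled them in Wt25, so the raised density was not particular to coding exons. Bins with few reads or with reads that could not be placed uniquely could not be listed, and their number in each class is unknown.

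**Figure D1:**
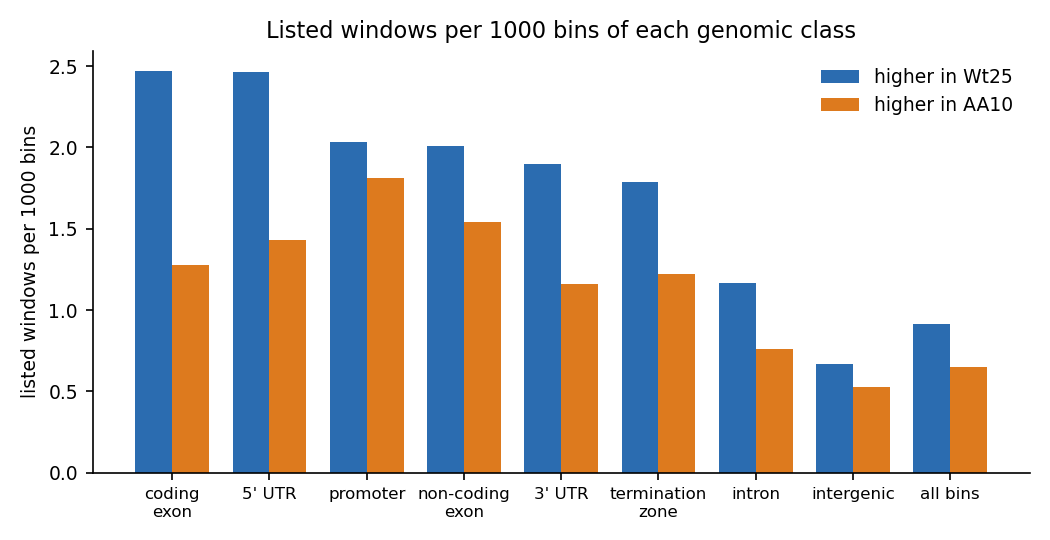
Listed windows per 1000 bins (y axis) in each genomic class (x axis), with blue bars for windows higher in Wt25 and orange bars for windows higher in AA10. Coding exons reach 2.47 in Wt25 and 1.28 in AA10, against 0.914 and 0.652 over all bins.

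More coding exon windows were listed in Wt25 than in AA10, by a wider margin than among the other windows. Of the 628 windows 65.9% (62.1 to 69.5) were higher in Wt25, against 58.1% (57.4 to 58.8) of the 20098 other windows. The odds ratio was 1.39 (two-sided Fisher's exact test, adjusted P = 0.000229, Benjamini-Hochberg over 5 tests). Against the 9205 intron windows, of which 60.5% (59.5 to 61.5) were higher in Wt25, the odds ratio was 1.26 (Fisher's exact test, adjusted P = 0.0129). Windows of 5′ UTRs were higher in Wt25 in 63.3% (49.3 to 75.3) and those of 3′ UTRs in 62.1% (56.8 to 67.05), intervals that overlap that of coding exons, and these differences were not tested. In windows with under 10% of bases marked as repeat the intron comparison had an odds ratio of 1.25 and an adjusted P of 0.0735 and was no longer called. The tests treat windows as independent, although 25.3% of the coding exon windows touched another listed window of the same direction, and they measure the number of windows, not the spread between libraries.

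The Wt25 share of coding exon windows ranged from 8.70% to 94.6% over the chromosomes. On chromosome 6 only 2 of 23 coding exon windows were higher in Wt25, and of the other windows there 12.04% were. On chromosome 7 the coding exon windows were 35 in Wt25 and 2 in AA10, and 74.7% of the other windows were higher in Wt25. On chromosome 2 they were 51 and 8, and on chromosome 13 they were 16 and 29. Chromosome 13 was thus one of the chromosomes where AA10 windows were more numerous, but 19 of the 29 lay in a stretch of 725 kb. Of the other windows on chromosomes 2 and 13, 73.4% and 46.4% were higher in Wt25. On chromosomes 1, 12 and 18 most other windows were higher in AA10, with 42.1%, 40.9% and 40.3% higher in Wt25. The coding exon windows there were mostly higher in Wt25, with 25 in Wt25 and 9 in AA10, 10 and 6, and 19 and 3. Chromosome 15 showed the reverse, with 14 in Wt25 and 17 in AA10, and 59.6% of the other windows higher in Wt25. On chromosomes 12 and 15 the intervals of the coding exon share (38.6 to 81.5 and 29.2 to 62.2) took in the share of the other windows. Among the 17 chromosomes with at least 15 coding exon windows, the Wt25 share of coding exon windows was above that of the other windows on 10 and below it on 7. Compared within chromosomes, the odds ratio against all other windows was 1.29 (exact conditional test over the chromosomes, two-sided P = 0.00469). Against the 9205 intron windows it was 1.23 (the same exact test, P = 0.023).

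**Figure D2:**
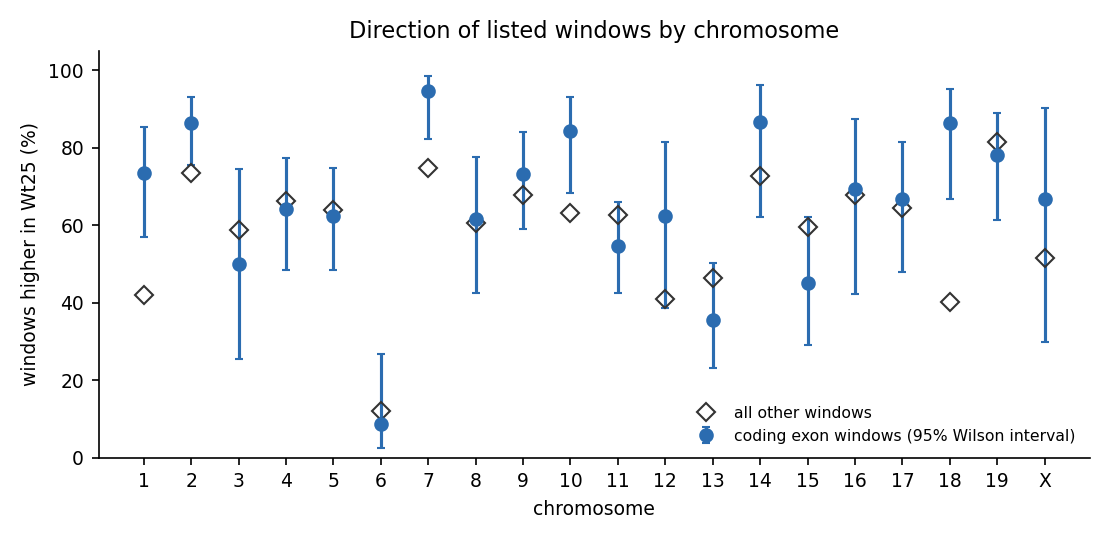
Share of windows higher in Wt25 (y axis, %) on each chromosome (x axis), with filled circles and 95% Wilson intervals for coding exon windows and open diamonds for all other windows. Chromosome 6 stands at 8.70% for coding exon windows and chromosome 7 at 94.6%, and on chromosomes 1, 2, 7, 10 and 18 the diamonds lie below the intervals.

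Coding exon windows held more CpGs than most listed windows. The mean number of CpGs in a window was 6.07 (SD 4.31, n = 414) in Wt25 and 5.22 (SD 3.27, n = 214) in AA10, with medians of 5 and 4. All coding exon bins had a mean of 4.98 (SD 4.68) and a median of 4, and the other listed windows a mean of 3.13 and a median of 3. At least 4 CpGs were present in 68.0% (64.3 to 71.5) of the coding exon windows and in 32.7% of the other windows, an odds ratio of 4.37 (two-sided Fisher's exact test, adjusted P = 8.87e-70). Of all coding exon bins, listed or not, 55.0% had at least 4 CpGs. The test thus compares classes of sequence that differ in CpG number whether listed or not, and it cannot tell what the listing adds. The 49 listed windows of 5′ UTRs had a mean of 6.57 CpGs and 67.3% of them had at least 4, and in listed promoter and non-coding exon windows the shares were 56.2% and 56.5%. Between the lists the share was 69.8% (65.2 to 74.0) in Wt25 and 64.5% (57.9 to 70.6) in AA10, which was not called as different (odds ratio 1.27, Fisher's exact test, adjusted P = 0.222). With a threshold of at least 3 CpGs the shares were 84.8% and 77.6% and the difference was called (odds ratio 1.61, Fisher's exact test, adjusted P = 0.0344).

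The listed share of coding exon bins differed by CpG number. Among the 10522 coding exon bins without a CpG, none was listed in Wt25 and 1 in AA10, a window in Rtn4, a gene for an endoplasmic reticulum protein. Bins with 1 CpG were listed at 1.21 per 1000 in Wt25 and 0.632 per 1000 in AA10. In Wt25 the density was 2.59 at 4 to 5 CpGs, 3.63 at 6 to 9 and 3.596 at 10 to 14, and at 15 or more it was 2.88 (1.89 to 4.40). In AA10 the corresponding densities were 1.44, 1.67 and 2.00, and at 15 or more CpGs, where 2 windows were listed, the density was 0.274 (0.0753 to 1.00).

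**Figure D3:**
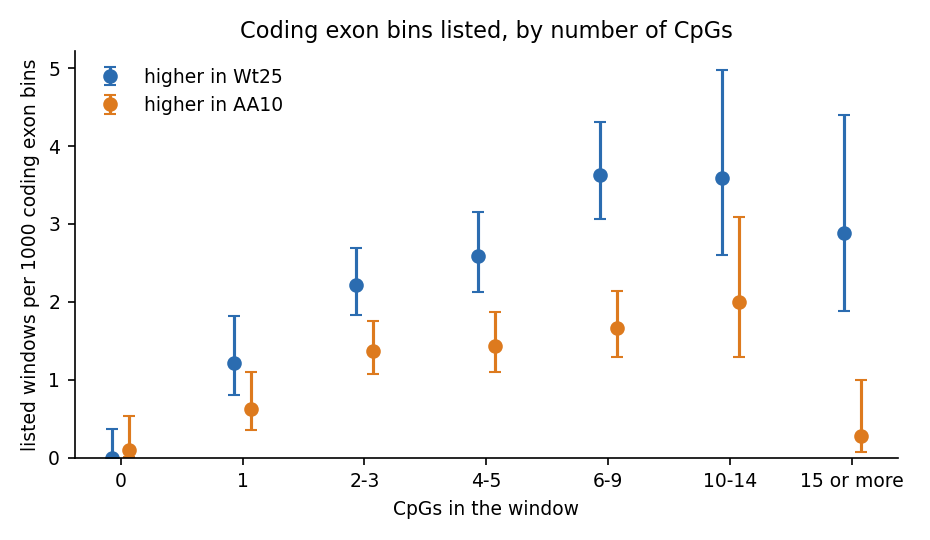
Listed windows per 1000 coding exon bins (y axis) by the number of CpGs in the bin (x axis), with blue circles for Wt25, orange circles for AA10 and 95% Wilson intervals as bars. In both lists bins without a CpG are near 0, and at 15 or more CpGs Wt25 stands at 2.88 and AA10 at 0.274.

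GC content was 53.1% (SD 8.01) in Wt25 windows, 50.7% (SD 7.80) in AA10 windows and 50.6% (SD 9.07) in all coding exon bins. The sequence CCGG, which reads the same on both strands, was present in 41.5% (36.9 to 46.3) of the Wt25 windows, 32.7% (26.8 to 39.3) of the AA10 windows and 31.8% of all coding exon bins. Within the coding part, CpGs most often began at the third codon base. Of 2136 CpGs in Wt25 windows, 32.6% began at the first, 28.0% at the second and 39.4% at the third codon base. Of 925 CpGs in AA10 windows the shares were 35.8%, 25.1% and 39.1%, and over all coding exon bins they were 34.6%, 25.6% and 39.8%. These are descriptions, and none was tested.

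Internal coding exons held most windows of both lists. They held 70.8% (66.2 to 75.0) of the Wt25 windows and 68.7% (62.2 to 74.5) of the AA10 windows, with an odds ratio of 1.10 (two-sided Fisher's exact test, adjusted P = 0.646), against 68.2% of all coding exon bins. Of the Wt25 windows 44 were in the first coding exon, 52 in the last and 25 in the only coding exon of a gene, and of the AA10 windows 24, 24 and 19 were. Last coding exons held 12.6% and 11.2% of the windows and 14.4% of the bins. The median length of the coding part of the exon was 191 bases for Wt25, 186 for AA10 and 191 for all bins, so that a typical window also took in flanking intron sequence. A median of 141 coding bases lay within a Wt25 window and 138 within an AA10 window, and 104 and 56 windows were coding over their whole length. The midpoint lay in the opening 20% of the coding sequence in 20.3% of the Wt25 windows and 24.8% of the AA10 windows, against 19.0% of all coding exon bins. The median distance to the nearest start site was 10340 bp in Wt25 and 13651 bp in AA10.

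**Figure D4:**
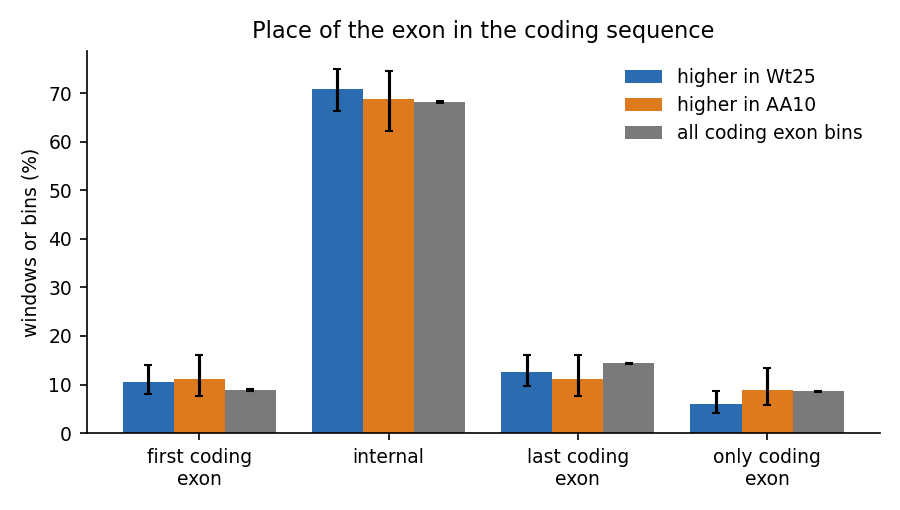
Share (y axis, %) of Wt25 windows, AA10 windows and all coding exon bins that lie in the first, an internal, the last or the only coding exon of a gene (x axis), with 95% Wilson intervals. Internal exons hold 70.8%, 68.7% and 68.2%.

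The 628 windows lay in 537 genes. Of the 20545 RefSeq genes with a coding exon bin, 359 (1.75%) had a Wt25 window in a coding exon and 179 (0.871%) an AA10 window. In Wt25 319 of the genes had 1 window and 13 had 3 or more, and in AA10 157 had 1 and 5 had 3 or more. Long coding sequences offer more bins: the genes with a window had a median of 10 coding exon bins and all genes a median of 6. Of the 62 genes with several coding exon windows, 61 had them in 1 direction only. The exception was Pcdhb19, a protocadherin gene with a single coding exon. It had a pair of touching Wt25 windows at 6.15% and 14.5% of its coding sequence and an AA10 window at 39.4%. The count of 61 takes in touching windows and dense runs (defined with the leading genes), which are of 1 direction by definition. With 1.75% and 0.871% of all genes listed, few genes with both directions would also occur if the lists were unrelated. The count was not tested. In 182 of the 359 Wt25 genes and 87 of the 179 AA10 genes, another window of the same direction lay outside the coding exons. A window of the opposite direction lay anywhere in 27 and 22 of these genes. The same shares over all genes were not counted, so agreement of direction within genes cannot be read from these counts.

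Part of the genes with several coding exon windows lay in dense runs, meaning 20 or more listed windows in a row, all of 1 direction and none over 10000 bp from the next. These runs also held windows in introns. All coding exon windows lay in such a run in 8 of the 13 Wt25 genes and 3 of the 5 AA10 genes with 3 or more of them, and in 4 of the 27 Wt25 genes and 4 of the 17 AA10 genes with 2. The windows of genes with 3 or more had a mean of 4.73 CpGs (median 2) in Wt25 and 4.00 (median 3) in AA10. Of the genes tied at 3 windows in Wt25 or 2 in AA10, those described next had most windows of that direction in the whole gene, an order that favours genes in dense runs. Printed here is 1 window from each of 4 genes, with fewer CpGs than the windows shown above. The 4833420G17Rik and Ap1b1 windows, with 5 CpGs each, lay above the AA10 median of 4. No coding exon window of either gene held more.
Zfp934 chr13:62518203-62518400, minus strand, 1 CpGs: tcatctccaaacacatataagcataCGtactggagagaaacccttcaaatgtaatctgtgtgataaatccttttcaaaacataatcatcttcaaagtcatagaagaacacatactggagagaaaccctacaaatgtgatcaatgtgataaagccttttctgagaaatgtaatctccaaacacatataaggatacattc
Gm8978 chr19:33616403-33616600, minus strand, 2 CpGs: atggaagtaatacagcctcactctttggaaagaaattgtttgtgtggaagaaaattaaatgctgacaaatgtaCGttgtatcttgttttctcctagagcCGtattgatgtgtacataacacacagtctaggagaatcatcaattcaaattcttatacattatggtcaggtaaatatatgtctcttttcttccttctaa
4833420G17Rik chr13:119469803-119470000, plus strand, 5 CpGs: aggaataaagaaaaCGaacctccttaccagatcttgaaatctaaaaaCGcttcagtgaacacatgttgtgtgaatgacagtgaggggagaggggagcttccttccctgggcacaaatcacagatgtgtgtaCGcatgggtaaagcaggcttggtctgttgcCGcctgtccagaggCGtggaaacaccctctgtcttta
Ap1b1 chr11:5019403-5019600, plus strand, 5 CpGs: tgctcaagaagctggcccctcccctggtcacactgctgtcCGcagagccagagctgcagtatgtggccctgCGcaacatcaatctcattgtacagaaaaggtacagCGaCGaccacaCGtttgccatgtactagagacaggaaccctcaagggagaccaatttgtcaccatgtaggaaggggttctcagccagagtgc

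Among the AA10 genes, the uncharacterised gene 4833420G17Rik on chromosome 13 had 8 AA10 windows in 6 of its 12 coding exons, with 2 to 5 CpGs each, and 50 further AA10 windows outside its coding exons. Its neighbours Paip1, a regulator of translation, Hmgcs1, the cytosolic HMG-CoA synthase of cholesterol synthesis, and Zfp131, a zinc finger gene, had 2, 3 and 2. Together with Ccl28, Nim1k and Gm20767 they lay in a stretch of 725 kb with 19 coding exon windows of AA10 in dense runs. In this stretch 373 AA10 windows and 2 Wt25 windows were listed in all. Ap1b1 on chromosome 11, which encodes an adaptin of clathrin-coated vesicles, had 6 AA10 windows in 5 of 22 coding exons, with 1 to 5 CpGs each. With Rasl10a, Ewsr1 and Gas2l1 it lay in a stretch of 76 kb with 65 AA10 windows and no Wt25 window.

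On the Wt25 side, Gm8978 on chromosome 19 had windows in 5 of its 9 coding exons, with 1 or 2 CpGs each. In 3 of these windows over 50% of the 32-base words occurred elsewhere in the genome, up to 100% of them in coding exon 9. The cytochrome P450 genes Cyp2c40 and Cyp2c69 had 3 windows each in a stretch of 58 kb with 70 Wt25 windows. Of their 32-base words, 58.1% to 86.8% in the Cyp2c40 windows and 4.19% to 72.5% in the Cyp2c69 windows occurred elsewhere. Zfp934 had 3 windows, each with 64.7% to 82.6% of its 32-base words present elsewhere. A stretch of 736 kb on chromosome 2 held 14 coding exon windows of Wt25 in dense runs. They lay in Ganc, an alpha-glucosidase gene, Rpap1, Ltk, Capn3, Itpka and Rtf1. Mga, Ehd4, Pla2g4f and Tmem87a in the same stretch also had Wt25 coding exon windows, which lay outside dense runs. Counting every class, 182 Wt25 windows and 2 AA10 windows were listed there. Cand1, a regulator of cullin ubiquitin ligases, had 3 adjoining windows in coding exon 10 of 15. Outside dense runs, Rtn4 had 3 AA10 windows in its long coding exon 3, and Sfn, the gene for 14-3-3 sigma, had 3 touching windows with 9, 10 and 12 CpGs that covered much of its only coding exon, of which 62.9% to 79.6% of the 32-base words occurred elsewhere in the genome.

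**Figure D5:**
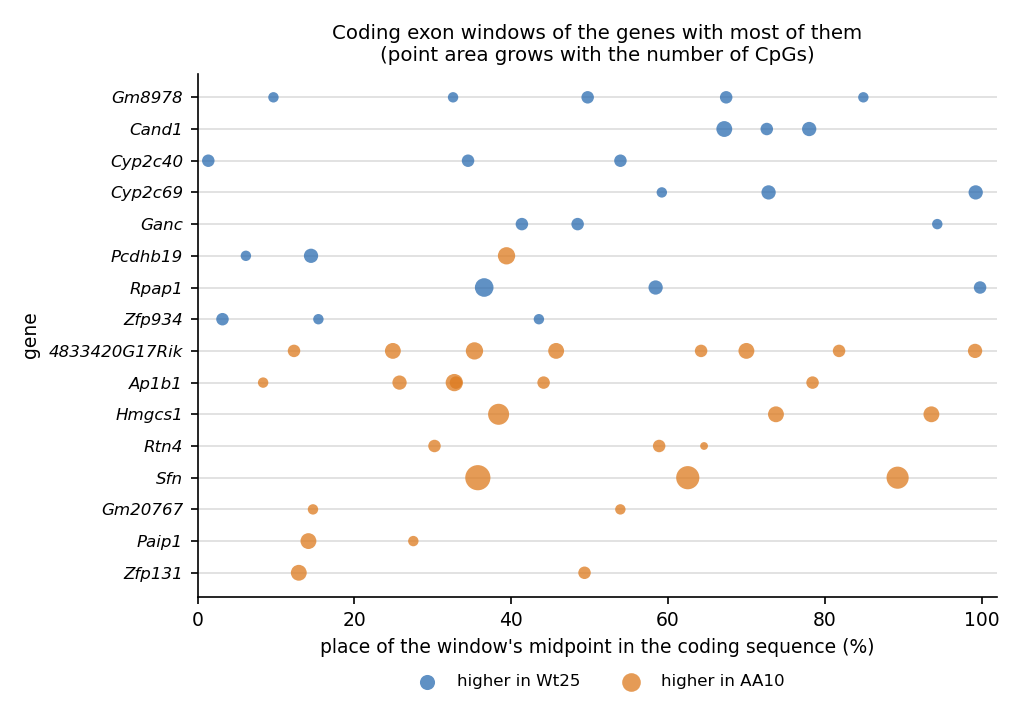
Place of each coding exon window's midpoint in the coding sequence (x axis, %) for genes with most windows (ties broken by windows in the whole gene), 7 from the Wt25 list and 8 from the AA10 list, and Pcdhb19 (y axis), with blue points for Wt25 and orange points for AA10, and a point area that grows with the CpG number. The 8 windows of 4833420G17Rik run from 12.3% to 99.2% of its coding sequence, and Pcdhb19 has points of both colours.

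In all, 41 Wt25 windows and 33 AA10 windows lay in dense runs, or 9.90% and 15.4%, and without them 0.223% and 0.108% of the coding exon bins were listed. The mean CpG number outside dense runs was 6.23 in Wt25 and 5.41 in AA10. Copies elsewhere in the genome touched few members: 86.5% of the Wt25 windows and 89.3% of the AA10 windows had no 32-base word with another copy, and in 19 and 9 windows over 50% of the words had one. Whether copies or dense runs set the direction of these windows was not tested.

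In the 12 gene lists most genes were represented by single windows. Of 98 chromatin modifier genes, 6 had a Wt25 window and 4 an AA10 window, or 6.12% and 4.08% against 1.75% and 0.871% of all genes. These genes are long, with a median of 20 coding exon bins against 6, and per 1000 coding exon bins the group had 3.32 Wt25 and 1.90 AA10 windows against 2.47 and 1.28 over all genes. The Wt25 genes were Ncor1, a corepressor gene with windows in coding exons 3 and 4 of 45, Chd2, Hdac7, Kat2b, Kdm2a and Kdm3b. Kdm2a, which encodes a histone demethylase, had 13 CpGs in its window in coding exon 16 of 20. The AA10 genes were Prdm16, a transcriptional regulator, and the dioxygenases Tet1, Tet2 and Tet3, which are knocked out in both lines.

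Each of the mouse Tet genes had 1 coding exon window, and all were higher in AA10. The Tet1 window lay in coding exon 5 of 12 and held 5 CpGs, the Tet2 window in coding exon 1 of 10 with 6 CpGs, and the Tet3 window in coding exon 3 of 11 with 5 CpGs. Over the whole gene, Tet1 had 9 AA10 windows, Tet2 1 and Tet3 2, with no Wt25 window in any of them. These genes are knocked out in both lines, and the transgene is human Tet3, whose reads were aligned to the mouse genome with the rest. Whether transgene reads or the knockout alleles entered these windows was not tested. Tet3 lies on chromosome 6, where most windows were higher in AA10.

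Of 70 neuronal transcription factor genes, Meis2 and Pax3 had a Wt25 window, in coding exons 8 of 13 and 7 of 9 with 4 and 8 CpGs, and none had an AA10 window. The 2 genes were 2.86% of the group against 1.75% of all genes, with 3.84 Wt25 windows per 1000 bins against 2.47. Of 110 axon guidance and neuronal adhesion genes, Slit2 had a Wt25 window in the last of its 39 coding exons and Slit1 an AA10 window in coding exon 6 of 37. Both encode secreted ligands of Robo receptors. The group was long, with a median of 15.5 bins, and had 0.478 windows per 1000 bins in each direction, against 2.47 and 1.28 over all genes. Of 251 ion channel and synapse genes, none had a Wt25 window, against 1.75% of all genes. Syn2 and Syt6, genes of synaptic vesicle proteins, had an AA10 window, or 0.797% against 0.871%. With a median of 9 bins, the group had 0 Wt25 and 0.593 AA10 windows per 1000 bins, against 2.47 and 1.28 over all genes.

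Protocadherins, cell adhesion proteins of neurons whose variable exons are unusually long, had the highest share of genes with a Wt25 window among the 12 gene lists. Of 69 genes, 7 had a Wt25 window and 1 an AA10 window, or 10.1% and 1.45% against 1.75% and 0.871% of all genes. The 10 Wt25 windows made 11.05 per 1000 bins against 2.47, and the AA10 window 1.10 against 1.28. Pcdha9, Pcdhb15 and Pcdhb19 had 2 Wt25 windows each, and Pcdha1, Pcdhb12, Pcdhb16 and Pcdh19 had 1. The clustered genes lie on chromosome 18, where 9 of the 19 Wt25 coding exon windows and 1 of the 3 AA10 windows were in them. Of the 32-base words of the windows in Pcdha1 and Pcdhb12, 74.3% and 83.8% occurred elsewhere in the genome. Without chromosome 18 the odds ratio for direction was 1.31 against all other windows (Fisher's exact test, adjusted P = 0.00472) and 1.22 against introns (adjusted P = 0.047).

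Metabolic genes had windows in both directions. Of 125 lipid and carbon metabolism genes, 5 had a Wt25 window and 3 an AA10 window, or 4.00% and 2.40% against 1.75% and 0.871% of all genes. With 3.57 windows per 1000 bins in each direction, the group stood above the 2.47 and 1.28 of all genes, and 3 of its 5 AA10 windows lay in Hmgcs1. In Wt25 these were Abca2, the pyruvate carboxylase gene Pcx, the pyruvate dehydrogenase kinase gene Pdk1, the lipase gene Pnpla2 and the coactivator gene Ppargc1a. In AA10 they were Hmgcs1, whose 3 windows lay in a dense run, the muscle carnitine palmitoyltransferase gene Cpt1b and the lipoprotein receptor gene Lrp2. Of 386 solute carrier genes, 7 had a Wt25 window and 6 an AA10 window, or 1.81% and 1.55%. Slc35g1 had 3 touching Wt25 windows in its last coding exon, and the serotonin transporter gene Slc6a4 had a Wt25 window with 10 CpGs in coding exon 7 of 13.

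Matrix genes had 9 Wt25 and 5 AA10 windows. Of 149 extracellular matrix and integrin genes, 6 had a Wt25 window and 5 an AA10 window, or 4.03% and 3.36% against 1.75% and 0.871% of all genes. The group was long, with a median of 18 bins against 6, and had 3.06 and 1.70 windows per 1000 bins against 2.47 and 1.28. Nid2, the gene for the basement membrane protein nidogen 2, had Wt25 windows in coding exons 5, 9 and 14 of 21 with 9, 6 and 2 CpGs, outside dense runs, and Adamtsl5 had 2. Nid1, which encodes the related nidogen protein, and the laminin gene Lamb2 had 1 Wt25 window each, while the laminin gene Lamc1, the collagen genes Col14a1 and Col5a3, the integrin gene Itgb5 and Adamts9 had 1 AA10 window each. Of 61 myosin and dynein genes, 4 had a Wt25 window and 2 an AA10 window, or 6.56% and 3.28%, and with a median of 27 bins their densities were 1.85 and 0.925 per 1000. Of 394 Zfp genes, 6 and 5 did, or 1.52% and 1.27%. Of 40 pluripotency genes with a coding exon bin, none had a Wt25 window, and Stat3 and Tet1 had an AA10 window, or 5.00% against 0.871%. Each had 1 such window, and Tet1, knocked out in both lines, is also counted among the chromatin modifiers. Of 1454 olfactory and vomeronasal receptor genes, 3 had a Wt25 window and none an AA10 window, which is 0.456 Wt25 windows per 1000 of their 6573 coding exon bins.

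Some other genes that the study named had no coding exon window. Cdh4, a cadherin gene, had 15 Wt25 windows in the whole gene, Mapt, the tau gene, had 2 AA10 windows, the fatty acid elongase gene Elovl6 had 5 and Foxp1 had 1, all of them outside coding exons by the rule used here. Pou3f2, which encodes BRN2, and Pax6, Hes1 and Hey2 had no listed window within the gene. Windows upstream of the gene are not part of this count. The paper measured hydroxymethylation at Pou3f2, Hes1 and Hey2 in neuronal progenitor cells derived from other, Tet3 knockout lines. Some of its Pou3f2 and Hey2 sites lay upstream of the start site. The lists used here are of undifferentiated Wt25 and AA10 cells, so those measurements were not tested.

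The deposited lists name a gene for 613 of the 628 windows. For 431 of these (70.3%) it was the gene whose coding exon held the midpoint, and for 182 it was another gene. The windows in coding exons of Rpap1, for instance, were listed under the neighbouring gene Ltk, and those of Ganc under Tmem87a or Capn3.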

How the data were processed

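Positions of differentially hydroxymethylated windows came from 2 deposited lists, 1 for each direction between Wt25 and AA10 mouse ESCs (3 5hmC-DIP libraries of each). The authors kept reads that STAR placed once in GRCm38 and that Picard did not mark as duplicates. They called bins of 200 bp with MEDIPS at a P-value threshold of 0.05, dropped those under IgG-DIP peaks or with simple tandem repeats or sequence of low complexity, and assigned genes with HOMER. Tool versions are not given in the sources used here. The deposited positions carry no counts or scores, so no depth, replicate spread or stricter threshold was available. Each entry covers 198 of the 200 bp of its bin. RNA-seq, H3K27ac and input libraries were not analysed here.

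Windows and all bins of GRCm38.p6 without unknown bases were classed by their midpoint against curated (NM, NR) RefSeq transcripts, in the order promoter, termination zone, coding exon, untranslated exon, non-coding exon, intron and intergenic. Where several coding transcripts overlapped, the one with the longest coding sequence gave the gene, exon number and codon place. CpG, GC, CCGG and 32-base words with another genomic copy were counted on the listed 198 bases. Deposited gene identifiers were matched to symbols in a GENCODE name table, and all 613 matched. Direction, CpG number (at least 4) and exon position (internal or not) were compared with two-sided Fisher's exact tests, Benjamini-Hochberg adjusted over the 5 tests, and called at an adjusted P-value under 0.05. Within chromosomes, a common Mantel-Haenszel odds ratio was tested by the exact conditional distribution of the counts.

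Named genes were the 8 with most coding exon windows in each list (ties by windows of that direction in the gene, then by symbol), the genes of the 8 windows with most CpGs, any gene with both directions, members of 12 gene lists in order of their number of windows, and Cdh4, Foxp1, Mapt, Elovl6, Pou3f2, Pax6, Hes1, Hey2, Tet1, Tet2 and Tet3. Members, lists and settings were chosen with earlier results of these data known, and genes named for another reason (Stox2, Ewsr1 and the other genes of dense runs) after their values were seen. One of the 8 leading Wt25 genes is not reported here by name, although counts include it. The alternatives were joined windows, 1 window per gene, left-out chromosomes or dense runs, other transcript sets, coding minimums, CpG thresholds and repeats. All 25 checks on simulated data gave the known answer. Tests ran in scipy 1.17.1 with pandas 2.3.3 and numpy 2.4.6 under Python 3.11.15, and plots were drawn with matplotlib 3.10.9.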

Additional observations from a re-analysis of the deposited data

How the results depend on the processing

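The direction of coding exon windows against all other windows was called under all 10 alternatives, with odds ratios from 1.29 to 1.48, and that against introns under 9 of 10, with odds ratios from 1.21 to 1.55. The exception was windows with under 10% of bases marked as repeat (1.25, 409 coding exon windows left), where the cause was not tested. The 10 include the comparison within chromosomes, whose P-values by the exact conditional test (0.00469 and 0.023) were not adjusted. CpG number against all other windows was called under all 11 alternatives (3.96 to 5.63), a comparison that takes in the CpG number of coding exons in general. CpG number between the lists was called only with at least 3 CpGs (1.61), and not under the other 10 (from 1.11). Exon position was called under none of 10 (1.05 to 1.22). Without dense runs the listed share of coding exon bins was 0.223% in Wt25 and 0.108% in AA10, since fewer windows were counted. Curated transcripts became the main setting because the rule's number of windows was met with them, so all RefSeq transcripts, predicted ones included, were run in their place. This setting, leaving out chromosome 18 and comparing within chromosomes were chosen after seeing the data. No paired analysis was possible because the lists pool the libraries, and for the same reason no library was left out. The depth of a window is unknown, so no window could be weighed by its reads.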
